A study of Homo sapiens with 6 samples.

Results

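Coenzyme Q synthesis was followed here through the transcripts of 10 genes, COQ2, COQ3, COQ4, COQ5, COQ6, COQ7, COQ9, PDSS1, PDSS2 and ADCK3, the older symbol of COQ8A. All 10 were present among the 23368 gene symbols of the count tables, and all 10 passed the filter on low counts that left 13209 genes. RNA was sequenced from NB4 cells, an established human acute promyelocytic leukemia line that carries the PML/RARα fusion, in 3 libraries of not treated cells and 3 of cells exposed to 10 µM maltonis for 24 h. The compound, a hydroxypyrone made from maltol, was given from a stock in distilled water, and the labels name no vehicle for the not treated cells. The set was chosen by the pathway and selected on the fold change of COQ3 between these same groups, so that the differences between not treated and maltonis-treated cells are given for them as a description and without p-values.

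Coenzyme Q, or ubiquinone, is the lipid that carries electrons in the inner mitochondrial membrane, from complexes I and II and several other dehydrogenases to complex III, and its reduced form also acts as an antioxidant. It is made from an isoprenoid tail, which derives from the mevalonate pathway, and a benzoquinone ring, which derives from tyrosine. PDSS1 and PDSS2 build the tail, COQ2 joins it to the ring precursor, and the ring is then hydroxylated and methylated by COQ6, COQ3, COQ5 and COQ7 in a mitochondrial complex that also needs COQ4, COQ9 and the kinase-like protein ADCK3.

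The 6 libraries held from 18492154 to 38205483 counts. The floor of detection was taken as 3 counts, between 0.0785 and 0.162 per 1000000 raw counts of a library. This limit allows for counting error alone. CPM are the counts of a gene per 1000000 counts of its library after scaling by the trimmed mean of M-values (TMM). Replicate 1 of both groups was sequenced to the lowest depth and carries another code in the name of the deposited library than replicates 2 and 3, whose meaning is not given, so differences are also given within each of these sets. The myeloid markers of the labelled cell type were present, with MPO at 14612 ± 1491 CPM in not treated and 7425 ± 127 CPM in maltonis-treated cells (SD, n = 3), although KIT was low, at 0.535 ± 0.131 CPM before treatment (SD, n = 3). Of the 6 myeloid markers, 3 were higher and 2 lower after maltonis. KIT rose to 3.22 ± 0.391 CPM, and CTSG rose from 109 ± 5.34 to 553 ± 19.9 CPM (SD, n = 3). Of 7 markers of other cell types, MS4A1 and HBB had no count in any library, and the 2 that were tested, CD3D and EPCAM, were lower after maltonis. The 7 together summed to between 59.9 and 62.7 CPM in not treated and between 25.5 and 28.4 CPM in maltonis-treated cells, and their part in the results was not tested. In bulk RNA, fewer cells of a type and less RNA per cell cannot be told apart.

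RefSeq promoter sequences were found for 8 of the 10 genes, and COQ3 and COQ4 had none in the table. The promoters of 3 genes are shown because they stand for the 3 patterns met below: COQ5, which was lower after maltonis, COQ7, which was higher, and ADCK3, whose groups overlapped. Each sequence is the longest stretch of the 250 bases before a RefSeq start that holds no annotated exon, written 5′ to 3′ on the strand of the gene in build GRCh38.p14, with capitals marking a CCAAT box (CCAAT) or a GC box (GGGCGG) on either strand.
COQ5, chr12:120529183-120529408, minus strand: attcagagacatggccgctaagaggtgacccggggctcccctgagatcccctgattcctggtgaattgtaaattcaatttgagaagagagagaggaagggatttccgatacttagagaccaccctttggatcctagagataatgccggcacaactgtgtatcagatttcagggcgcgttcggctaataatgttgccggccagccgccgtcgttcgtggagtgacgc
COQ7, chr16:19067396-19067550, plus strand: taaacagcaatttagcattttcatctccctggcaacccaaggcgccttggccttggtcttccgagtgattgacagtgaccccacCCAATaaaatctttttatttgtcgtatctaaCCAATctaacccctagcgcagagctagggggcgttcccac
ADCK3, chr1:226940044-226940285, plus strand: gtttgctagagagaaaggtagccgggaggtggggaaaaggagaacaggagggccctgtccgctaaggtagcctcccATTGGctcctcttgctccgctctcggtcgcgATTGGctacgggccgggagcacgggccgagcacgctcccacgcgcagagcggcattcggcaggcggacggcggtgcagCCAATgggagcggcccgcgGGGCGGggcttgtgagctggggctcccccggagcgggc
Over the whole 250 bases, the COQ5 promoter held neither motif, and the COQ7 promoter shown held 2 CCAAT boxes. The ADCK3 promoter held 3 CCAAT boxes and 1 GC box, which do not overlap each other. A CCAAT box was present in a promoter of ADCK3, COQ2, COQ6 and COQ7, 4 of the 8 genes, against 32.0% of 35116 RefSeq promoters. A GC box was present in 7 of the 8 genes, all but COQ5, against 42.6% of all promoters. COQ6 and COQ7 have 3 and 4 promoters in the table and so had more chances of a match than the others. CACGTG (the E-box), CCGGAAG (ETS), and the gapped motifs of NRF1 and of the interferon-stimulated response element, given by name, were found in no promoter of the 8 genes on either strand, and in 6.34%, 8.52%, 5.07% and 3.02% of all promoters, in that order. These matches describe letters in a fixed window and not bound sites.

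After 24 h of maltonis, COQ3 transcripts were nearly lost, COQ5 and PDSS1 fell to a smaller extent, and COQ4, COQ6 and COQ7 rose, so that the 10 genes did not move together. At a false discovery rate (FDR) under 0.01 in edgeR’s quasi-likelihood test over all genes, 4 members were lower (COQ3, COQ5, PDSS1 and PDSS2), 3 were higher (COQ4, COQ6 and COQ7) and 3 were neither (COQ2, COQ9 and ADCK3). Over all 13209 genes, 32.1% were lower and 31.9% higher by the same rule, 64.0% in all, and nothing is read from the members’ counts, since the contrast served to choose them. The median log2 fold change was −0.21 over the 10 genes and 0.01 over all genes tested. Groups did not overlap for 9 of the 10 genes, all but ADCK3, where the share over all genes was 76.6% (38.8% higher and 37.8% lower). With the further criterion of a change beyond 2.5-fold, a log2 fold change past 1.32 in size, only COQ3 and COQ5 remained, both lower, beside 10.4% of all genes lower and 9.95% higher. With an RPKM (CPM per kilobase of exon) over 10 asked for as well, the same pair remained, beside 3.18% of all genes lower and 1.54% higher. COQ3 passed this limit narrowly, with a not treated mean of 10.6 RPKM and replicate 1 at 9.68 RPKM.

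**Figure D1:**
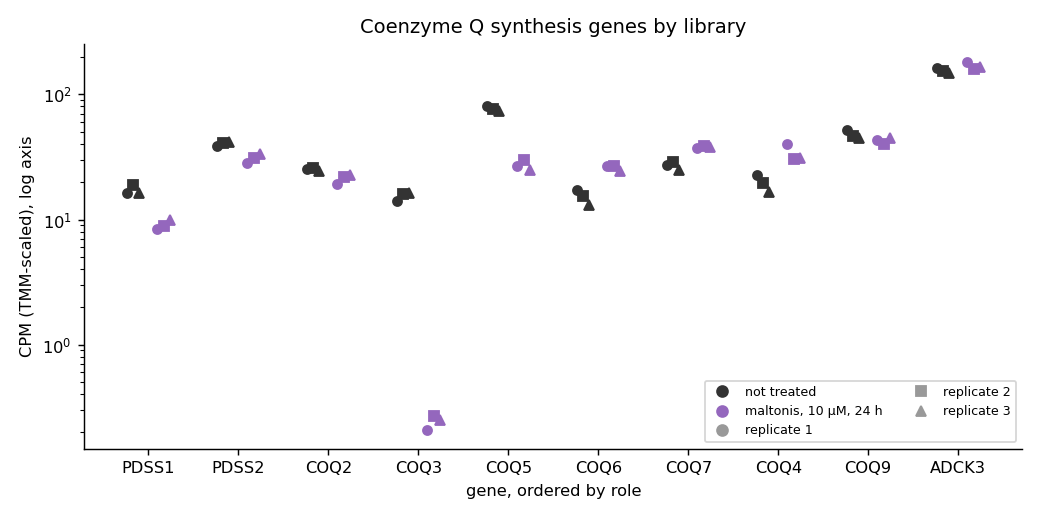
TMM-scaled CPM on a log axis for each of the 10 genes in each library, with not treated libraries in black and maltonis-treated libraries in purple, and symbols for replicates 1, 2 and 3. COQ3 lies between 14.1 and 16.2 CPM without treatment and between 0.207 and 0.268 CPM with maltonis, while the other 9 genes stay above 8 CPM in all 6 libraries.

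COQ3 is the O-methyltransferase that adds the methyl groups to the hydroxyls of the ring, with S-adenosylmethionine as donor. It had 265, 576 and 538 counts in replicates 1, 2 and 3 of not treated cells and 4, 9 and 7 counts in those of maltonis-treated cells. On the CPM scale it stood at 14.1, 15.9 and 16.2 without treatment and at 0.207, 0.268 and 0.248 with it. All 3 treated libraries were thus close to, but above, the floor of 3 counts, and the groups were far apart. Its mean fell from 15.4 ± 1.14 to 0.241 ± 0.0316 CPM (SD, n = 3), which left 1.56% of the not treated level, 63.9-fold lower. The log2 fold change was −5.95 (standard error 0.162), the sixth lowest of all genes tested. Summed over libraries, 1379 counts stood against 20, and the ratio of the scaled sums, 63.4, had a 95% interval of 41.0 to 104 from the exact Poisson limits of the 20 counts, which cover counting error only. As log2 CPM after adding a prior count of 2, which draws low values closer, the difference was −5.68 in replicate 1 and −5.61 in replicates 2 and 3.

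COQ5, the C-methyltransferase of the ring and the other methyltransferase of the pathway, had the second largest difference. It stood at 80.7, 77.0 and 74.0 CPM in not treated and at 26.6, 30.0 and 24.9 CPM in maltonis-treated replicates 1, 2 and 3. Every treated library was below every not treated one, and the mean was 2.84-fold lower, with a log2 fold change of −1.50 (standard error 0.0842). COQ5 thus kept 35.2% of its level where COQ3 kept 1.56%.

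COQ6 and COQ7, the hydroxylases of the ring, were higher after maltonis. COQ6, a flavin-dependent monooxygenase, measured 17.2, 15.3 and 13.1 CPM in the not treated libraries against 26.8, 26.9 and 24.5 CPM in the treated, or 0.78 as a log2 fold change (standard error 0.106). COQ7, a di-iron hydroxylase that acts late in the pathway, measured 27.5, 28.8 and 25.0 CPM in the former against 37.1, 38.4 and 37.9 CPM in the latter, or 0.48 as a log2 fold change (standard error 0.0746). The treated libraries were above the not treated ones for both genes, at 171% and 140% of the not treated mean. The count of COQ6 has the largest exon overlap with other genes among the 10 members: in the GENCODE annotation, 37.3% of its exon length lies opposite exons of ENTPD5 and 6.04% opposite exons of FAM161B, and the sources used here do not say whether strand was used in counting. FAM161B was itself 7.32-fold higher after maltonis, from 4.31 ± 0.311 to 31.5 ± 1.07 CPM (SD, n = 3), and ENTPD5 was lower, from 5.37 ± 0.632 to 3.39 ± 0.236 CPM (SD, n = 3). The part of these overlaps in the COQ6 value was not tested. Of the exon length of PDSS1, 10.5% lies opposite ABI1 (log2 fold change 0.05), and of that of COQ5, 3.33% lies opposite RNF10. RNF10 was lower, from 282 ± 19.3 to 170 ± 6.14 CPM (SD, n = 3). COQ9 overlaps CIAPIN1 by 2.41% on the opposite strand and AC009052.1 by 2.71% on the same strand. COQ7 overlaps AC099518.4 by 2.26% on the opposite strand. Their part in the values of these members was not tested either.

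Among the proteins that support the ring-modifying complex, COQ4 was higher and COQ9 and ADCK3 were not called. COQ4, needed for the complex to assemble, measured 22.5, 19.7 and 16.6 CPM in not treated against 39.9, 30.2 and 31.1 CPM in treated replicates, or 0.79 as a log2 fold change (standard error 0.140). It varied more than the other members in both groups, with a coefficient of variation of 15.1% and 15.9%, although the groups did not overlap. Of its exon length, 4.30% lies opposite TRUB2, which was lower (log2 fold change −0.23). COQ9, a lipid-binding partner of COQ7, stood at 52.0, 46.5 and 44.8 CPM without and at 43.5, 40.1 and 44.6 CPM with treatment, so that the highest treated library lay just under the lowest not treated one, with a log2 fold change of −0.16 (standard error 0.0799). ADCK3 stood at 161, 154 and 148 CPM without and 180, 160 and 165 CPM with maltonis, the only member whose groups overlapped, with a log2 fold change of 0.13 (standard error 0.0657).

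Both subunits that build the tail were lower after maltonis, to different extents, and COQ2, which attaches it, was not called. PDSS1, a subunit of the decaprenyl diphosphate synthase, measured 16.4, 19.0 and 16.3 CPM in not treated against 8.47, 8.80 and 9.94 CPM in treated replicates, 52.6% of the not treated mean and −0.93 as a log2 fold change (standard error 0.105). PDSS2, the other subunit, stood at 38.7, 40.6 and 41.7 CPM and at 28.2, 30.8 and 33.4 CPM, 76.3% of the not treated mean and −0.39 as a log2 fold change (standard error 0.0799). The groups of both subunits were apart, and PDSS1 kept the smaller share of its level. With total counts as the only scaling, PDSS2 was at −0.27 and no longer past the FDR threshold. COQ2, the prenyltransferase that joins tail and ring, stood at 25.4, 26.0 and 24.5 CPM without and at 19.3, 21.7 and 22.5 CPM with maltonis. Its groups did not overlap, but its log2 fold change of −0.25 (standard error 0.0812) did not pass the threshold. With the code of the deposited libraries as a term in the fit, it did, at an unchanged −0.25.

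**Figure D2:**
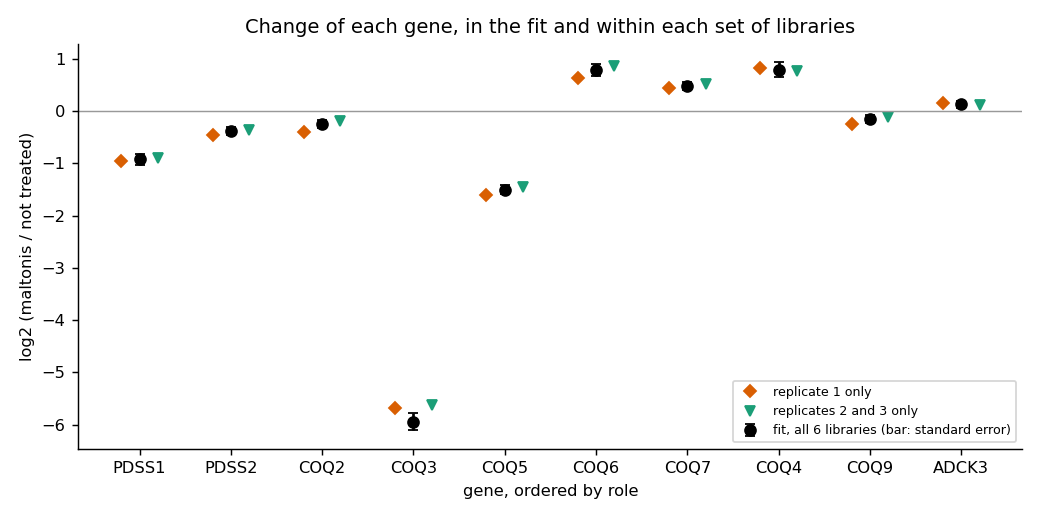
Log2 ratio of maltonis-treated to not treated cells for each gene, with the fit over all 6 libraries in black (bar: standard error), replicate 1 alone as orange diamonds and replicates 2 and 3 as green triangles. The signs are the same in both sets for all 10 genes, and COQ3 lies lowest, at −5.95 in the fit.

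Within replicate 1 and within replicates 2 and 3, all 10 genes had differences of the same sign. The sets were closest for PDSS1, at −0.95 and −0.91, and for ADCK3, at 0.16 and 0.11, while COQ5 was at −1.60 and −1.46. They were furthest apart, in log2 units, for COQ6, at 0.64 and 0.85, and for COQ2, at −0.40 and −0.19. Replicate 1 has 1 library per group, so no spread can be given within it.

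Levels between genes were compared as RPKM. Without treatment, COQ5 was the most abundant member, at 30.6 ± 1.33 RPKM, followed by ADCK3 at 19.8 ± 0.872 RPKM (SD, n = 3), and the libraries of neither overlapped those of the next gene. COQ9, COQ3 and PDSS2 followed at 11.0 ± 0.875, 10.6 ± 0.779 and 10.3 ± 0.391 RPKM (SD, n = 3), and neighbours in this order overlapped. COQ2 and PDSS1, at 9.11 ± 0.269 and 8.81 ± 0.794 RPKM (SD, n = 3), overlapped each other. COQ7, COQ4 and COQ6 were lowest and distinct, at 6.58 ± 0.470, 4.06 ± 0.615 and 2.28 ± 0.306 RPKM (SD, n = 3). The 3 genes with the lowest level before treatment were thus the 3 that were higher after it, a pattern noticed in these values and not tested.

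With maltonis, ADCK3 became the most abundant, at 21.6 ± 1.35 RPKM, and COQ5 came next, at 10.8 ± 1.03 RPKM (SD, n = 3). Libraries of COQ5 overlapped those of COQ9, at 9.89 ± 0.536 RPKM (SD, n = 3). COQ3 moved from the fourth to the last place, at 0.165 ± 0.0217 RPKM (SD, n = 3). The ratio of the highest to the lowest member rose from 13.4 to 131, but without COQ3 it was 13.4 before and 5.54 after treatment, so that the other 9 genes were closer to each other in level after maltonis. COQ3 made up 9.36% ± 0.929 of the summed RPKM of the 10 genes without treatment and 0.200% ± 0.0285 with it (SD, n = 3). The summed RPKM itself was 113 ± 3.60 without and 82.6 ± 0.990 with maltonis (SD, n = 3). The summed RPKM also holds the fall of COQ5, from 30.6 ± 1.33 to 10.8 ± 1.03 RPKM (SD, n = 3). On the CPM scale, not divided by length, the sums were 439 ± 18.1 and 397 ± 11.9 CPM, without overlap (SD, n = 3). Without COQ3, the CPM sums overlapped, at 424 ± 19.1 and 397 ± 11.9 CPM (SD, n = 3). ADCK3 alone held 154 ± 6.80 and 168 ± 10.5 CPM of these (SD, n = 3). The RPKM levels depend on the exon length. With that of the longest transcript, COQ9 and COQ2 stood at 26.2 and 15.4 RPKM before treatment, and COQ2 came before COQ3, at 11.5 RPKM. With maltonis, COQ9 then came before COQ5, at 23.4 and 17.7 RPKM.

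**Figure D3:**
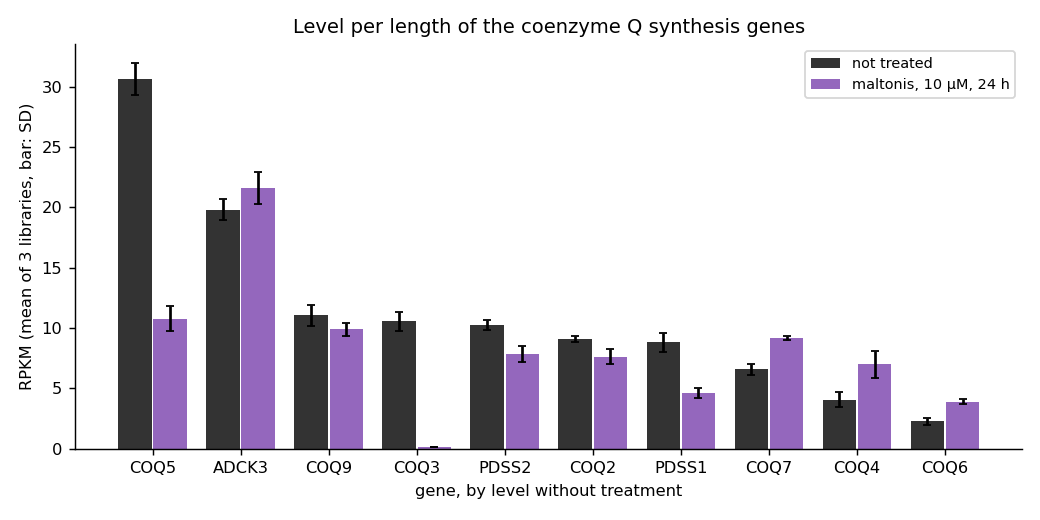
Mean RPKM of each gene in 3 not treated (black) and 3 maltonis-treated (purple) libraries, with the SD as bars, ordered by the level without treatment. COQ5 is highest without treatment, at 30.6 RPKM, and the purple bar of COQ3, at 0.165 RPKM, is barely visible.

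The genes beside COQ3 on chromosome 6 did not share its loss. Of the 5 listed genes on each side in the RefSeq order, 4 had enough counts to be tested: FBXL4 on one side, and PNISR, USP45 and CCNC on the other. PNISR, an RNA-binding protein of nuclear speckles and the nearest gene on its side, was higher, from 112 ± 6.04 to 233 ± 9.44 CPM (SD, n = 3), for a log2 ratio of 1.05 with a standard error of 0.0631 and an adjusted p = 1.09e-06 in edgeR’s quasi-likelihood test. CCNC, which encodes cyclin C of the Mediator kinase module, was lower by far less than COQ3, at a log2 ratio of −0.31 with a standard error of 0.0842 and an adjusted p = 0.00851 in the same edgeR test. FBXL4 and USP45 did not pass the threshold, at log2 fold changes of 0.13 and 0.24. FAXC, the nearest gene on the other side, had at most 1 count in a library, and COQ3 shares no annotated exon sequence with another gene.

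**Figure D4:**
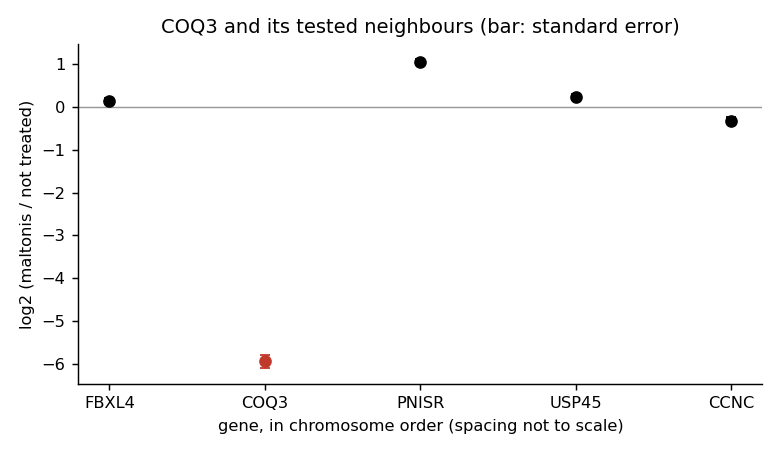
Log2 ratio of maltonis-treated to not treated cells for COQ3 (red) and the 4 tested genes around it, in their order on chromosome 6 with spacing not to scale (bar: standard error). COQ3 stands at −5.95, while its neighbours lie between −0.31 and 1.05.

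The 5 genes whose profile over the 6 libraries was nearest to that of COQ3, by Euclidean distance on log2 CPM centred on the not treated mean of each gene, were BOLA3, METTL10, FGFR1, TTC5 and NEK3, at distances of 0.570, 0.595, 0.598, 0.782 and 0.783. BOLA3, a mitochondrial factor for the delivery of iron-sulfur clusters, stood at 32.9, 29.9 and 29.1 CPM without and at 0.671, 0.626 and 0.674 CPM with maltonis. NEK3, a kinase of the NIMA family, stood at 28.4, 28.1 and 28.4 CPM without and at 0.361, 0.328 and 0.390 CPM with it. Their mean log2 fold changes lay between −5.54 for BOLA3 and −6.29 for NEK3. The next gene, TTC26, followed at 0.888. Since both groups hold 3 libraries and the distance is set by the size of the decrease, this is a list of genes with as large a loss. Only TTC5 and NEK3 were among the nearest 5 when the values were not centred.

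Other genes around coenzyme Q were taken by list, and the first list held Q-binding proteins, relatives of ADCK3 and factors for the ring precursor and for electron supply to COQ6. All 10 were tested, and 5 were higher and 4 lower, with a median log2 fold change of 0.36, while 31.9% of all genes were higher, 32.1% lower and 64.0% either. ADCK4, now COQ8B, the closest relative of ADCK3, rose from 11.9 ± 1.27 to 25.7 ± 2.21 CPM (SD, n = 3), for a log2 ratio of 1.12 (adjusted p = 1.51e-05 in edgeR’s quasi-likelihood test). The more distant relatives ADCK1 and ADCK2 fell, at log2 ratios of −2.64 and −2.38, and ADCK5 rose, at 0.57. The Q-binding proteins COQ10A and COQ10B moved apart, at −0.92 and 0.50. HPDL, which takes part in making the ring precursor from tyrosine, fell from 63.7 ± 10.8 to 25.1 ± 2.21 CPM (SD, n = 3), for a log2 ratio of −1.34. FDXR and FDX1L, which pass electrons to mitochondrial monooxygenases, rose, at 1.46 and 0.68, while FDX1 of the same list was not called, at 0.23.

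Of 9 genes of the mevalonate pathway and its branches, 5 were lower, 1 was higher and 3 were neither, beside 32.1% of all genes lower and 31.9% higher, with a median log2 fold change of −0.44. The 5 include FDFT1, at −0.51, which draws farnesyl diphosphate into sterols and supplies no unit of the tail. HMGCS1, the synthase that makes HMG-CoA, fell from 553 ± 44.1 to 103 ± 7.77 CPM (SD, n = 3), for a log2 ratio of −2.43 (adjusted p = 7.43e-08 in edgeR’s quasi-likelihood test). GGPS1, which makes the geranylgeranyl diphosphate from which other isoprenoids are built, was the only one higher, at 0.45, and was no longer called without maltonis replicate 2 or without maltonis replicate 3, when 0 genes were higher.

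The enzymes that pass electrons to coenzyme Q outside complex I showed no common direction, with 3 higher, 3 lower and 5 neither among the 11 tested of 15, and a median log2 fold change of −0.04. Over all genes, 31.9% were higher and 32.1% lower. SDHA, SDHB, SDHC and SDHD, the subunits of complex II, were not called, at log2 fold changes between −0.09 and 0.06. SDHC had the largest standard error of these subunits, 0.272, so its change is poorly measured. It stood at 8.58, 17.6 and 19.0 CPM in not treated and at 11.4, 16.4 and 17.9 CPM in maltonis-treated replicates 1, 2 and 3. ETFDH, which brings in electrons from fatty acid oxidation, rose from 29.1 ± 1.14 to 70.6 ± 2.41 CPM (SD, n = 3), for a log2 ratio of 1.28 (adjusted p = 4.60e-07 in edgeR’s quasi-likelihood test), with ETFB at 1.04 and ETFA lower at −0.28. AIFM2, a Q reductase known for protection from lipid peroxidation, rose by 1.24, while NQO1, another quinone reductase, and DHODH, of pyrimidine synthesis, fell by 1.44 and by 0.79 on the log2 scale. Without not treated replicate 1, and without maltonis replicate 3, 5 genes were higher. These fits filtered genes anew, so they could test more of the 15 listed. Complex III, which takes the electrons from reduced coenzyme Q, had 7 of 9 genes lower and 0 higher, where 32.1% of all genes were lower and 31.9% higher, with a median of −0.34, and CYC1, cytochrome c1, led with −1.34. Without not treated replicate 2, and with total counts as the only scaling, 4 of these genes were lower.

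COQ3 and COQ5 use S-adenosylmethionine in mitochondria, and the carrier of this donor and 12 other mitochondrial methyltransferases and related factors were looked at beside them. Of these 13 genes, 4 were lower, close to the 32.1% of all genes, and 1 was higher, against 31.9% of all genes, with a median log2 fold change of −0.08, and the lowest, TFB2M, was at −0.54. SLC25A26, the carrier itself, stood at 27.2 ± 1.10 CPM without and 25.6 ± 0.874 CPM with maltonis (SD, n = 3) and was not called. TFB1M was the only one called higher, at 0.34, while METTL20 had the largest log2 fold change, 0.59, and was not called. Without not treated replicate 3, maltonis replicate 2 or maltonis replicate 3, 0 were higher, and without not treated replicate 1, 2 were. No gene of this list changed beyond 2.5-fold, so that none of them neared the −5.95 of COQ3 or the −1.50 of COQ5.

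**Figure D5:**
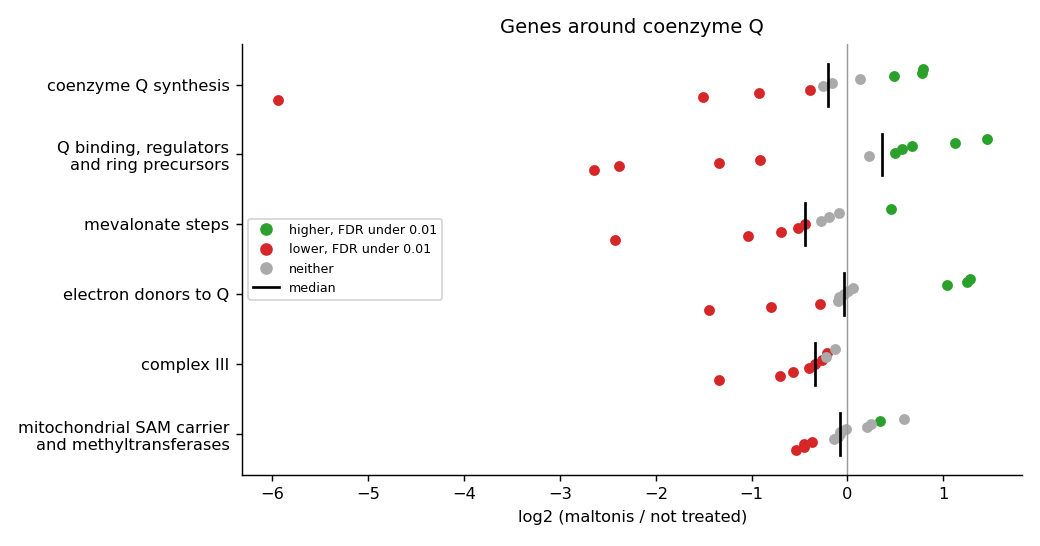
Log2 ratio of maltonis-treated to not treated cells for each tested gene of 6 lists, 1 row per list, in green where higher and in red where lower at an FDR under 0.01, in grey otherwise, with the list median as a vertical line. COQ3, on whose fold change the first list was selected, lies at −5.95, and the other 9 genes of that list lie between −1.50 (COQ5) and 0.79 (COQ4).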

How the data were processed

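The members and the gene lists were chosen with earlier results of these data known. The authors deposited 1 table of raw HTSeq counts per library, 1 whole number per gene symbol. The submitters' processing notes name TopHat, Bowtie2, HTSeq and the build hg19, without versions. The annotation and the strand setting are not given in the sources used here, and libraries came from a stranded total RNA kit.

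The 6 count tables went into edgeR 4.0.16 (R 4.3.3): filterByExpr, TMM scaling, glmQLFit and glmQLFTest without covariates, and Benjamini-Hochberg adjustment over 13209 genes, with calls at an FDR under 0.01. Standard errors were derived from the fold change and its F statistic. RPKM used the summed exon length in GENCODE version 29 (GRCh38), found for 21642 of 23368 symbols. GRCh38 served for lengths, gene order and promoters only. The test was first tested on simulated data. Alternatives were DESeq2 1.42.0, other scalings, no filter, the replicate number or library code in the model, each library left out, another exon length and another measure of likeness. Replicates of a group differed by more than sampling noise, with chi-square statistics per degree of freedom from 4.15 to 33.1, and each counts as 1 sample. The study calls them biological replicates.

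Genes were named by a rule: the 10 members, the largest change in each direction of each list and up to 2 more per list, the 5 genes nearest to COQ3, and its neighbours. Any further gene of a list, the cell type markers singled out, the partners of overlapping exons, TTC26 and the genes under the filter were named after their values were seen.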

Additional observations from a re-analysis of the deposited data

How the results depend on the processing

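Each log2 fold change of the 10 genes kept its direction under 12 alternatives, and all but 2 values kept their side of the FDR threshold: COQ2, at −0.25, passed it with the library code as a term, and PDSS2, at −0.27, did not with total counts as the only scaling, which moved the median of all genes from 0.01 to 0.13. COQ3 ranged from −6.06 to −5.83. The criterion of 2.5-fold, with or without an RPKM over 10, left 0 members higher and 2 lower in place of 3 and 4. COQ3 lay close to that RPKM limit, with a not treated mean of 10.6 RPKM, or 10.1 RPKM with raw totals. The labels do not say that replicates with the same number were handled together, and their deviations from the group mean correlated by 0.301, 0.0852 and 0.161, so the numbers were not taken as pairs, and not every library correlated best with its own number. Across the groups, libraries with the same code correlated by 0.0852 to 0.301, and those with different codes by −0.232 to −0.162. With the replicate number as a block, 3 members were higher and 4 lower, and 4602 genes were higher and 4620 lower in place of 4213 and 4239. With the code as a term, 3 members were higher and 5 lower, and 4731 genes were higher and 4743 lower. The methyltransferase list had 2 genes higher under the block and with the code as a term, and 3 with total counts, in place of 1. Without the filter, 5 electron donors were higher in place of 3, and with total counts 4 genes of complex III were lower in place of 7. Leaving out a library gave 0 to 1 mevalonate genes higher, 3 to 5 electron donors higher, 4 to 8 complex III genes lower and 0 to 2 methyltransferases higher. With the longest transcript as length, the RPKM without treatment was 50.3 for COQ5, 27.9 for ADCK3, 26.2 for COQ9, 15.4 for COQ2, 11.5 for COQ3, 11.4 for PDSS2, 10.6 for PDSS1, 10.2 for COQ7, 6.26 for COQ4 and 4.88 for COQ6, and with raw totals it was 8.74 for COQ2 and 9.85 for PDSS2. Without centring, the distance also holds the difference in level between genes, and 2 of the 5 genes nearest to COQ3 were shared. The causes of the shifts in calls were not tested. Depth limits the COQ3 ratio, which rests on 4 to 9 counts per treated library.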

Other observations

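Some genes that feed electrons to coenzyme Q fell under the filter on low counts and were not tested in the main fit. The fit without this filter included them, and it called 5 electron donors higher in place of 3. CHDH, choline dehydrogenase, had 0 counts in each not treated library and 6, 12 and 6 counts in maltonis-treated replicates 1, 2 and 3. GPD2, the mitochondrial glycerol-3-phosphate dehydrogenase, had 2, 1 and 3 counts without treatment, at or under the floor of 3, and 9, 10 and 7 with it. PRODH, proline dehydrogenase, had at most 2 counts in a library. CD3D, a T cell marker, had between 841 and 1578 counts in the not treated libraries, while CD3E, of the same receptor complex, had at most 2 counts in a library.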
